A study of Mus musculus with 36 samples.

Results

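The genes described here encode the proteins of the cytoplasmic ribosome. They were taken by name as the rows of the count tables called Rps, Rpl or Rplp with a number, together with their named paralogs such as Rpl22l1 and Rps27l, and names with a hyphen, which belong mostly to pseudogenes, were left out. Of 23903 genes listed in either table, 87 had such a name. The table of Lrig1-labelled cells listed 85 of them among 20181 genes, and all 85 passed the filter on low counts, which kept 14306 genes. The table of Lgr5-labelled cells listed 87 among 22587 genes, and 86 passed among 18025, the exception being Rpl3l, the muscle paralog of Rpl3. Rpl3l and Rpl39l were listed in the Lgr5 table but not in the Lrig1 table. In the gene annotation, 5 of the 87 (Rps4l, Rpl32l, Rpl6l, Rps3a2 and Rps3a3) are processed pseudogenes, whose reads can overlap with those of their parent genes. Rpl10l was listed in neither table.

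A ribosome joins a small subunit, which holds the mRNA and reads its codons with the Rps proteins around the ribosomal RNA, to a large subunit, which forms the peptide bonds and is built with the Rpl proteins. The Rplp proteins form the flexible stalk of the large subunit that recruits translation factors. Most of these proteins are present at equal numbers in each ribosome, and their mRNAs are among the most abundant of a growing cell. Their transcripts characteristically begin with a C followed by a tract of C and T, the terminal oligopyrimidine (TOP) motif, through which mTORC1 signalling and Larp1 control their translation, so that mRNA level and protein output can part.

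The cells were epidermal cells of mouse tail skin from 2 lines, Lrig1-EGFP-ires-CreERT2 and Lgr5-EGFP-ires-CreERT2, each crossed with Rosa26-fl/STOP/fl-tdTomato and of both sexes. A single topical dose of hydroxytamoxifen, given at 6 to 8 weeks of age, switched on tdTomato in part of the cells that expressed the Lrig1 or Lgr5 locus, stem cells of the upper and the lower hair follicle, and the mark passed to their descendants (Lrig1 GL and Lgr5 GL, for genetic labelling). All mice carried the reporter and received the drug, including those of the 0w group, which were taken 1 week later without injury. The other groups were taken 1, 2, 4 and 8 weeks after a first full-thickness wound (1w pw1 to 8w pw1), and 1 week after a second wound placed over the first at 8 weeks (1w pw2). Each group had 3 libraries in each population, 36 in all. None of the groups after 0w was unwounded, so that time after a wound cannot be told apart from age or time since labelling. Each library came from a small fixed number of sorted tdTomato+ cells, drawn from the wound bed and from follicles farther away at once, so that these locations cannot be told apart. As the unit is a mixture of cells, fewer cells with a high level and less RNA per cell cannot be told apart either. The study describes the replicates of this time course as mice, the labels do not tie a library to a mouse, and p-values measure the spread between libraries.

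Library totals lay between 765252 and 3365666 counts for Lrig1 GL (median 1930063), and between 1297798 and 6960537 for Lgr5 GL (median 4284763). All 8 basal and follicle keratinocyte markers (Krt5, Krt14, Krt15, Krt17, Trp63, Cdh1, Itga6 and Col17a1) had counts in every group. Their summed level ran from 23452 to 27894 at 0w in CPM, counts scaled to a common library size, and from 11109 to 16860 at 8w pw1 in Lrig1 GL, and from 19841 to 31959 at 0w and 18978 to 43989 at 1w pw1 in Lgr5 GL. Of 10 immune markers, 7 (Tyrobp, Fcer1g, Lyz2, C1qa, Cd3e, Cd3g and Cd207) were not listed in either table. The listed ones summed to at most 18.1 CPM in a library of Lrig1 GL and 30.1 in one of Lgr5 GL. Of 7 fibroblast markers, 5 were listed for Lrig1 GL, with sums of 2.68 to 97.0 CPM. All 7 were listed for Lgr5 GL, with sums of 62.8 to 348 CPM. Endothelial and melanocyte markers summed to at most 17.1 and 51.3 CPM in any library. Every listed gene reached at least 2 counts in a library of Lrig1 GL or 3 of Lgr5 GL, so that a gene that is not listed may have been filtered out and is not a measured 0. A single transcript, Gm12415, took 12% to 52.1% of the counts of the Lgr5 GL libraries and at most 0.000212% of those of Lrig1 GL. Levels below are therefore CPM of library sizes scaled by the trimmed mean of M values (TMM), and differences are log2 differences between time points within a population. A gene was called when edgeR's quasi-likelihood test, adjusted over all genes tested by the Benjamini-Hochberg method, gave an adjusted p under 0.05.

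Near their annotated starts, many of these genes carry a pyrimidine tract, shown here for members that carry the results below. The sequences come from RefSeq promoters on GRCm38.p6, of which 63 of the 87 genes had one, and each is 30 bases read 5′ to 3′ on the strand of the gene. Capitals mark the longest run of C and T within 50 bases of the start, on which each window is centred as far as the bases reach, so that not every window holds the start itself. Counted from 1 at the annotated start, the run begins at 41 in Rpl41 and Rps2, where it reaches the last base searched, at 32 in Rpl6, at 14 in Rpl11 and at 2 in Rpl22l1, and it begins 16 bases before the start in Rpl13 and 2 before it in Rps18. The genes are Rpl41, Rpl6 and Rpl13, which fell at 8w pw1 in Lrig1 GL, Rps18 and Rps2, which rose at 1w pw1 in Lgr5 GL, Rpl11, whose change differed between the populations, and Rpl22l1, which lay on the other side of 0 from most members.
Rpl41, chr10:128549119-128549148, minus strand: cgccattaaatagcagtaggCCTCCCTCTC
Rpl6, chr5:121204521-121204550, plus strand: cgctgccttagTTCTCTTTCCCgtcttgca
Rpl13, chr8:123102324-123102353, plus strand: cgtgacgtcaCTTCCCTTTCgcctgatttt
Rpl11, chr4:136053358-136053387, minus strand: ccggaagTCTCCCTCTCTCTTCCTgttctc
Rps18, chr17:33955648-33955677, minus strand: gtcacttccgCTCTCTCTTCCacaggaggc
Rps2, chr17:24720083-24720112, plus strand: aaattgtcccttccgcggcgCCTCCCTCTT
Rpl22l1, chr3:28805499-28805528, plus strand: cgcaagcccgTTCTCTTCCCacggctgcag

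A run of at least 10 C or T within 50 bases of the start was found in 42 of the 63 genes (66.7%), against 18% of 27018 RefSeq promoters of the same length. A C followed by at least 4 C or T exactly at the annotated start was found in 13 (20.6%), against 2.49% of all promoters. The run thus lay away from the annotated base in most members. In the 300 bases from 250 before to 50 after the start, searched on both strands, the letters CCGGAAG, the core bound by ETS factors, were present in 24 (38.1%), against 9.12% of all promoters. The YY1 letters AAGATGG were present in 9 (14.3%, against 6.48%), the E-box CACGTG in 5 (7.94%, against 7.24%) and the CCAAT box letters CCAAT in 19 (30.2%, against 37.9%). These are matches of letters and say nothing about binding in these cells.

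The measured levels of the members differed widely, although most ribosomal proteins are present at equal numbers in each ribosome. Such equality need not extend to the processed pseudogene Rpl6l or the paralogs Rpl3l and Rps27l, which are among those named here. Per kilobase of transcript, the members with the lowest mean level over the Lrig1 GL libraries were Rps10 with 4.55 CPM per kb, Rpl13a with 7.27 and Rpl6l with 11.4, while Rplp0 had 680, Rps27l 662 and Rpl41 640. In Lgr5 GL, Rpl3l had 0.736 CPM per kb, Rps10 3.07 and Rpl13a 8.81, while Rpl41 had 667, Rps18 515 and Rplp1 471. On the scale not divided by length, the highest mean levels were those of Rpl5 (1178 CPM), Rplp0 (923) and Rpl4 (756) in Lrig1 GL, and Rpl4 (560) and Rplp0 (525) were among the highest in Lgr5 GL. The counting options that the study lists name exons and gene names, and none for reads that match several places. These genes have many processed pseudogenes. The hyphenated names that were left out, 179 in the Lrig1 GL and 182 in the Lgr5 GL table, held counts equal to a mean of 12.2% to 14.6% of the members' own counts over the groups of Lrig1 GL and 17.4% to 18.6% over those of Lgr5 GL. How many reads the members lost to or gained from such copies was not tested.

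As a share of all counts, the members together were lowest at 8w pw1 in Lrig1 GL and highest at 1w pw1 in Lgr5 GL. In Lrig1 GL the 3 libraries held 1.82%, 2.05% and 2.14% of counts on the members at 0w and 2.08%, 2.16% and 2.50% at 4w pw1. At 8w pw1 they held 0.904%, 1.10% and 1.13%, below all other libraries of the population. The mean was 2.00% ± 0.165 (SD, n = 3) at 0w, 1.79% ± 0.230 at 1w pw1, 1.80% ± 0.325 at 2w pw1, 2.25% ± 0.223 at 4w pw1, 1.04% ± 0.122 at 8w pw1 and 1.44% ± 0.128 at 1w pw2. In Lgr5 GL the libraries held 0.793%, 0.806% and 1.08% at 0w and 1.40%, 1.42% and 2.22% at 1w pw1, with no overlap. The Lgr5 GL means were 0.892% ± 0.160 at 0w, 1.68% ± 0.464 at 1w pw1, 1.03% ± 0.269 at 2w pw1, 0.847% ± 0.157 at 4w pw1, 1.16% ± 0.199 at 8w pw1 and 1.30% ± 0.171 at 1w pw2. With Gm12415 taken out of the totals, the Lgr5 GL mean was 1.43% ± 0.471 at 0w and 2.57% ± 0.238 at 1w pw1, and from 1.43% to 1.68% at the later times. Counting error is small beside these spreads: the library with 2.16% at 4w pw1 had a 95% Wilson interval of 2.13% to 2.19%, which covers counting error only.

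**Figure D1:**
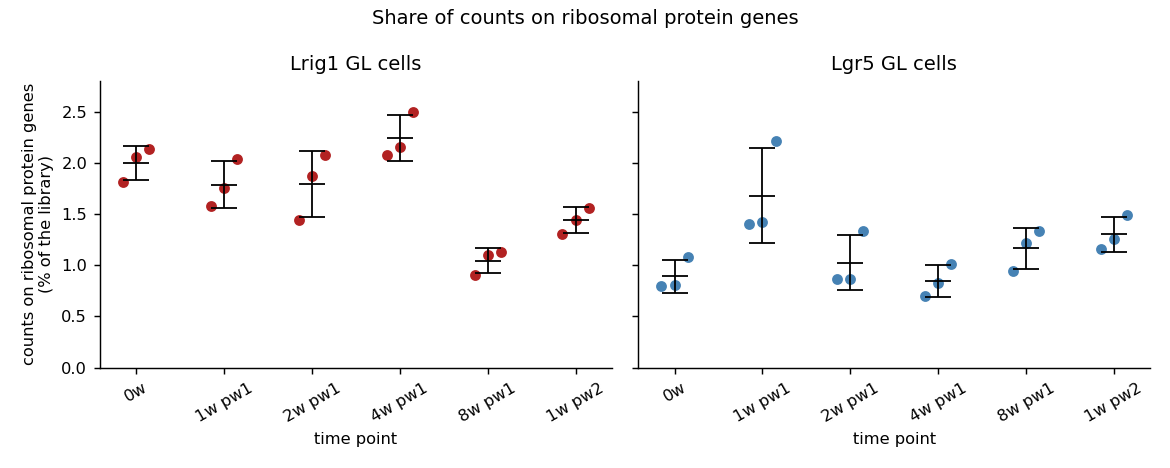
Percent of each library's counts on the ribosomal protein genes (vertical axis, from 0) at the 6 time points in Lrig1 GL (left) and Lgr5 GL cells (right). Points are libraries, bars the mean and SD of 3. The 3 Lrig1 GL libraries at 8w pw1 (0.904% to 1.13%) lie below all others of that population, and the 3 Lgr5 GL libraries at 1w pw1 (1.40% to 2.22%) lie above those at 0w (0.793% to 1.08%).

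Over the first 4 weeks after the first wound, no member was called in Lrig1 GL. The members' median log2 difference from 0w was -0.16 at 1w pw1, -0.13 at 2w pw1 and 0.20 at 4w pw1, beside -0.05, -0.01 and -0.03 for all genes tested. At 1w pw1, 8 members were lower and 1 was higher at an unadjusted p under 0.05, against 5.07% and 5.97% of all genes. Of all genes, 0.0489% were called lower and 0.168% higher at 1w pw1, 0% at 2w pw1, and 0.0419% higher and 0% lower at 4w pw1. Rpl13, a large-subunit protein, was the most negative, with 193, 333 and 383 CPM at 1w pw1 against 550, 634 and 665 at 0w, a difference of -1.03 (SE 0.269) with an adjusted p of 0.144 in edgeR's quasi-likelihood test. Rpl6 had 125, 136 and 195 CPM against 251, 275 and 326 (-0.91, adjusted p 0.220). Between 1w pw1 and 4w pw1 the median was 0.38, with 76 of 85 members positive (50.3% of all genes), 12 of them at an unadjusted p under 0.05 (3.82% of all genes) and none called.

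At 8w pw1 in Lrig1 GL, the time the study took as the memory state before a second wound, 9 of 85 members had fallen against 0w and none had risen, where 1.32% of all genes were called lower and 1.54% higher. The median difference was -0.80, 1.75-fold lower, beside -0.01 for all genes tested. In all, 78 members were negative (50.3% of all genes), 48 were lower at an unadjusted p under 0.05 (10.7% of all genes), and for 49 every library at 8w pw1 lay below every library at 0w (12.8% of all genes). Of the 9, 8 encode or match large-subunit proteins and Rps14 the small subunit.

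Rpl41, a very short basic protein of the large subunit, had 358, 430 and 466 CPM at 0w and 155, 164 and 178 at 8w pw1. All 3 libraries at 8w pw1 thus lay below those of every other time point, the next lowest being 222 CPM at 1w pw2. The difference was -1.33 (SE 0.268, adjusted p 0.0238 in edgeR's quasi-likelihood test). Its gene spans chr10:128548114-128549305 on the minus strand of GRCm38.

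Rpl32, a large-subunit protein, had 293, 345 and 415 CPM at 0w and 118, 156 and 168 at 8w pw1 (-1.25, SE 0.265, adjusted p 0.0238). The processed pseudogene copy Rpl32l fell as well, from 45.5, 49.3 and 49.3 to 16.1, 17.1 and 18.6 CPM (-1.47, adjusted p 0.0457), and its reads may in part be those of Rpl32. Rpl6 fell from 251, 275 and 326 to 92.5, 111 and 137 CPM (-1.32, SE 0.283, adjusted p 0.0244), and Rpl13 from 550, 634 and 665 to 222, 298 and 336 (-1.11, adjusted p 0.0387). In each of these genes the groups did not overlap.

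Rpl11, which with Rpl5 and the smallest ribosomal RNA can bind the p53 regulator Mdm2, fell from 183, 222 and 263 CPM at 0w to 88.6, 90.3 and 121 at 8w pw1 (-1.15, SE 0.280, adjusted p 0.0387). Its partner Rpl5 did not share that pattern: it had 873, 994 and 1084 CPM at 0w and 943, 1378 and 1534 at 8w pw1, overlapping groups with a difference of 0.39 (adjusted p 0.448). Also called were Rps14 (-1.11, adjusted p 0.0418), a protein of the small subunit's platform, and Rpl10a (-1.07, adjusted p 0.0465).

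The 3 stalk genes had negative differences and were not called. Rplp0, the stalk's anchor and a common reference gene for normalization, had 916, 1251 and 1265 CPM at 0w and 490, 562 and 745 at 8w pw1, groups that did not overlap (-0.93, adjusted p 0.0546). Rplp1 had -0.68 and Rplp2 -1.19 (adjusted p 0.0522). The 34 small-subunit genes had a median of -0.74 with 1 called, and the 48 large-subunit genes a median of -0.94 with 8 called; the difference between subunits was not tested. Rps6, the small-subunit protein phosphorylated by S6 kinase, had 115, 158 and 301 CPM at 0w and 80.1, 90.4 and 110 at 8w pw1 (-1.03, adjusted p 0.121). Rps19, needed for maturation of the small subunit's RNA, had -1.05 (adjusted p 0.0598). The most negative members, Rpl23a (-2.02, adjusted p 0.0671) and Rpl10 (-1.75, adjusted p 0.0507), had wider spreads and were not called.

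Only 7 members were positive at 8w pw1 in Lrig1 GL, and none of these was called. Rpl22l1, the paralog of Rpl22, had 11.8, 19.9 and 31.8 CPM at 0w and 39.0, 60.5 and 131 at 8w pw1, every library higher (1.86, SE 0.571, adjusted p 0.0740). Rpl39 had 121, 121 and 177 CPM at 0w and 246, 291 and 444 at 8w pw1, also without overlap (1.23, adjusted p 0.124). Rps12, at 4.11 to 10.9 CPM at 0w and 13.4 to 24.4 at 8w pw1, had 1.20 (adjusted p 0.352). The others were Rps10 (0.66), Rpl36al (0.43), Rpl5 (0.39) and Rps20 (0.31).

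**Figure D2:**
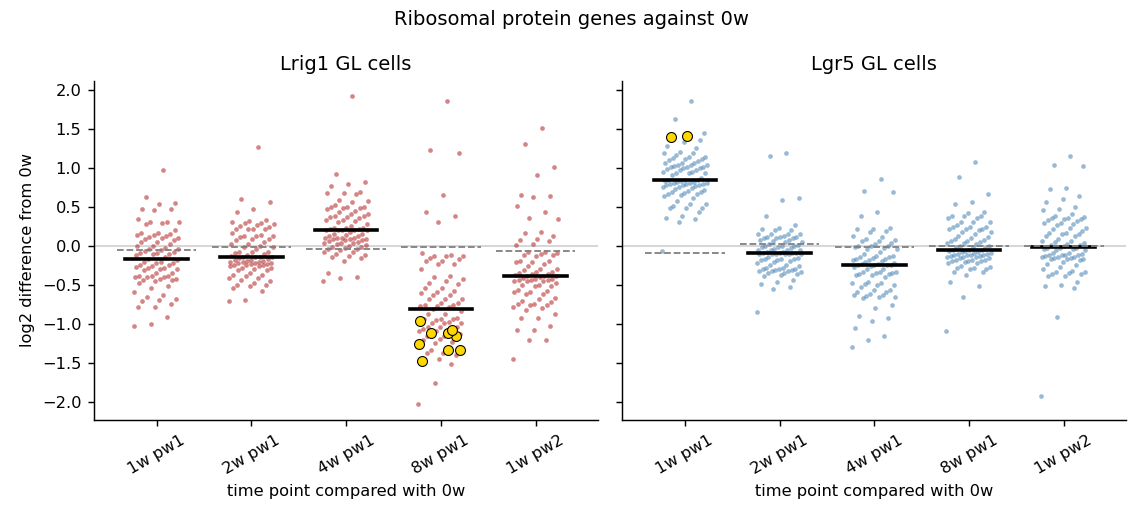
Log2 difference from 0w of each ribosomal protein gene (points) at the 5 later time points in Lrig1 GL (left) and Lgr5 GL cells (right), with the median of the members as a black line, the median of all genes tested as a dashed grey line, and called members as yellow points. At 8w pw1 in Lrig1 GL the median is -0.80 with 9 members called, and at 1w pw1 in Lgr5 GL it is 0.85 with 2 called.

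The number called at 8w pw1 rested on single libraries. It was 0 without 0w replicate 1 or without any 1 of the 3 libraries at 8w pw1, 1 without 0w replicate 3, 4 without replicate 2 or 3 of 1w pw2 and 18 without replicate c of 2w pw1, while the median stayed between -0.96 and -0.69. It was also 0 when trends on GC content and transcript length were removed from each library, with a median of -0.49 beside -0.32 for all genes, or when surrogate variables were fitted. In the libraries of 8w pw1 the share of mitochondrially encoded counts was 10.9% to 14.4%, against a mean of 4.58% ± 1.24 (SD, n = 3) at 0w, and the summed keratinocyte markers were lower as given above; their part in the result was not tested.

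Set against 4w pw1 in place of 0w, the 8w pw1 libraries of Lrig1 GL had 28 members called lower and none higher, where 1.94% of all genes were called lower and 1.78% higher. The comparison uses the same 8w pw1 libraries, and all 9 members called against 0w were among the 28. The median was -1.05, 2.07-fold lower, beside 0.07 for all genes, and for 57 members no library at 8w pw1 reached the lowest at 4w pw1 (15.8% of all genes). Rpl27, a large-subunit protein, had the largest difference, with 145, 149 and 156 CPM at 4w pw1 and 18.3, 34.3 and 40.4 at 8w pw1 (-2.26, SE 0.413, adjusted p 0.0157); at 0w it had 62.1, 80.7 and 112. Rplp0 fell from 1068, 1350 and 1476 to 490, 562 and 745 CPM (-1.12, SE 0.257, adjusted p 0.0286). The 28 held 12 small-subunit genes, among them Rps19 (-1.21), Rps18 (-1.20) and Rps3 (-1.03), 15 large-subunit genes and 1 stalk gene. The 28 calls were lost without replicate a or b of 4w pw1 or replicate a or b of 8w pw1, 10 were made without replicate c of 8w pw1, and 20 to 29 without any other library. None was made once GC content or length trends were removed, singly or together (median -0.34 with both, beside -0.13 for all genes), or with surrogate variables.

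One week after the second wound, Lrig1 GL had no member called against 0w, where 1% of all genes were called higher and 0.245% lower, and 29 members had every library below 0w, where 10.4% of all genes did. The median was -0.39, with 15 members lower at an unadjusted p under 0.05 (7.81% of all genes) and 3 higher (10.7%). Rpl32 had 151, 177 and 188 CPM at 1w pw2 against 293, 345 and 415 at 0w (-1.03, adjusted p 0.0631). Rpl39 (246, 383 and 412 CPM) and Rpl22l1 (47.7, 54.6 and 79.3 CPM) stayed above all 0w libraries, with 1.32 (adjusted p 0.144) and 1.52 (adjusted p 0.168). Against 8w pw1 the median was 0.37, with 78 of 85 members positive (49.5% of all genes), 11 of them at an unadjusted p under 0.05 (3.08%) and none called (0.00699%). Rpl41 moved from 155, 164 and 178 CPM at 8w pw1 to 222, 324 and 391 at 1w pw2, with an adjusted p of 0.661 for its difference of 0.91.

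In Lgr5 GL the largest difference came early. At 1w pw1, Rps18 and Rps2 had risen against 0w and no member had fallen, where 0.433% of all genes were called higher and 0.86% lower. The median difference was 0.85, 1.80-fold higher, beside -0.08 for all genes tested, and 85 of 86 members were positive, against 46.5% of all genes. At an unadjusted p under 0.05, 51 members were higher and none lower (6.79% and 11.8% of all genes), and 48 members had all 3 libraries above those of 0w (9.98% of all genes).

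Rps18, a protein of the small subunit's head, had 166, 173 and 290 CPM at 0w and 498, 582 and 588 at 1w pw1. These 3 libraries lay above every other Lgr5 GL library, the next highest being 392 CPM at 1w pw2. The difference was 1.41 (SE 0.303, adjusted p 0.0327 in edgeR's quasi-likelihood test). Its gene spans chr17:33951999-33956001 on the minus strand of GRCm38.

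Rps2, which lines the entry of the mRNA channel, had 108, 139 and 155 CPM at 0w and 273, 352 and 441 at 1w pw1, again above all other libraries of the population (1.40, SE 0.311, adjusted p 0.0361). Rps3, at the same channel entry, had 252, 270 and 398 CPM against 601, 664 and 832 (1.19, adjusted p 0.0634). Rplp0 had 379, 435 and 489 CPM at 0w and 787, 828 and 1027 at 1w pw1 (1.02, adjusted p 0.0624). In each of these genes the groups did not overlap.

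All 34 small-subunit genes were positive at 1w pw1 with a median of 0.95, as were 48 of 49 large-subunit genes (median 0.84) and the 3 stalk genes (median 0.80). The 1 negative member was Rpl39l, the paralog of Rpl39, with 8.40, 20.5 and 37.6 CPM at 0w and 19.5, 20.9 and 23.2 at 1w pw1 (-0.06). Rps27l (0.31) and Rpl39 (0.35) were the lowest of the positive members. Rpl5 had 260, 286 and 457 CPM at 0w and 661, 671 and 676 at 1w pw1 (1.00, adjusted p 0.158), and Rpl11 62.9, 87.1 and 108 against 156, 159 and 179 (0.94, adjusted p 0.121), so that both Mdm2-binding partners were positive here.

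**Figure D3:**
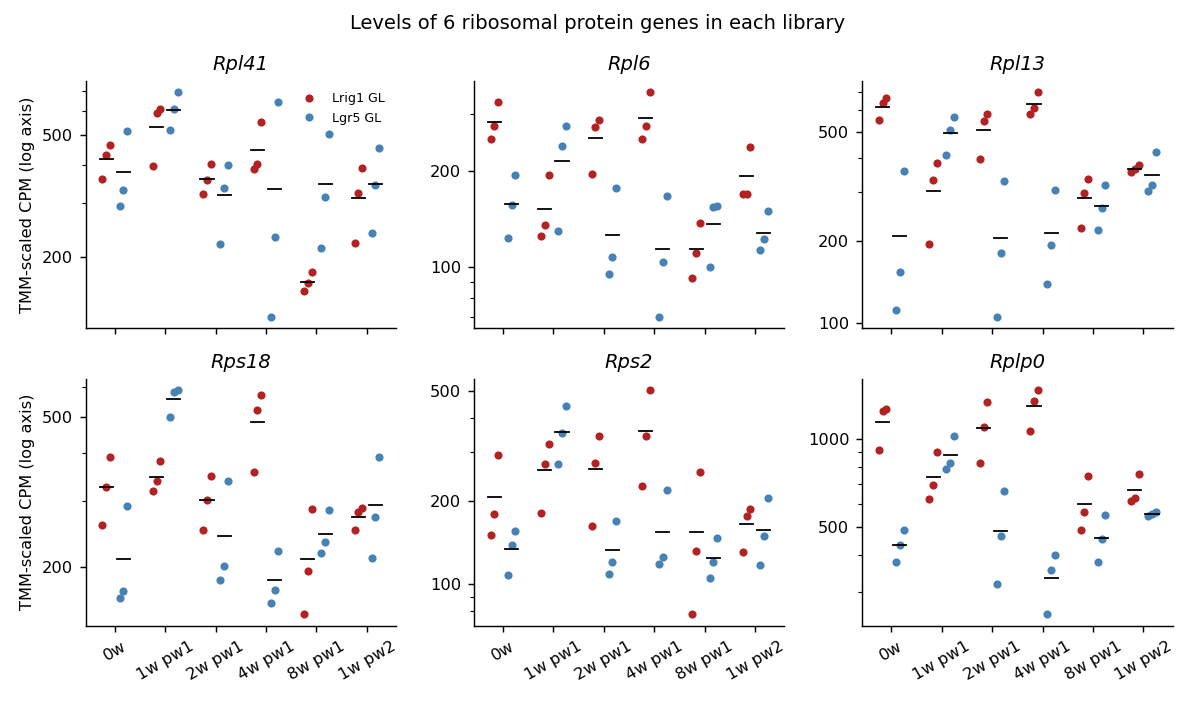
TMM-scaled CPM (log axis) of Rpl41, Rpl6, Rpl13, Rps18, Rps2 and Rplp0 in each library of Lrig1 GL (red) and Lgr5 GL cells (blue) at the 6 time points, with the mean of 3 libraries as a black line. In Lrig1 GL, Rpl41 at 8w pw1 (155 to 178 CPM) lies below all other libraries, and in Lgr5 GL, Rps18 at 1w pw1 (498 to 588 CPM) lies above all others.

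The 2 calls were lost without replicate a or b of 0w, replicate 1 of 1w pw1 or replicate b of 4w pw1. The number was 1 without replicate b or c of 8w pw1 or replicate 2 or 3 of 1w pw2, 5 without replicate a of 4w pw1 and 7 without replicate c of 0w, while the median stayed between 0.75 and 1.13. With CPM on library totals in place of TMM the number was 0, and it was 0 with surrogate variables, where the median was 0.37.

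The higher level did not last. Between 1w pw1 and 4w pw1, 15 of 86 members fell in Lgr5 GL and none rose, where 1.19% of all genes were called lower and 1.95% higher, and all 86 differences were negative (46.5% of all genes). The median was -1.11, 2.16-fold lower, beside 0.11 for all genes, 64 members were lower at an unadjusted p under 0.05 (9.31% of all genes), and 59 did not overlap (12.1% of all genes). Both comparisons use the same 1w pw1 libraries. Rps18 (from 498, 582 and 588 to 161, 174 and 221 CPM) and Rps2 (from 273, 352 and 441 to 118, 126 and 219 CPM) were among the 15, with -1.59 (adjusted p 0.0152) and -1.21 (adjusted p 0.0445).

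Rpl37a, a large-subunit protein, fell from 125, 131 and 188 to 37.3, 49.8 and 55.4 CPM, with the smallest adjusted p of the 15 (-1.65, SE 0.311, adjusted p 0.0140). Rplp0 fell from 787, 828 and 1027 to 251, 356 and 399 CPM (-1.39, adjusted p 0.0152). Rps23, which sits at the decoding centre, fell from 75.9, 131 and 159 to 6.72, 16.8 and 37.0 CPM (-2.63, SE 0.526, adjusted p 0.0185), and Rps7 from 94.0, 125 and 142 to 20.8, 26.3 and 37.7 (-2.08, adjusted p 0.0164). The others included Rpl36a (-1.93), Rpl27a (-1.89), Rps20 (-1.49), Rpl32 (-1.44), Rps4x (-1.33), Rps16 (-1.32) and Rpl3 (-1.04). The number called was 0 without replicate c of 4w pw1, 2 without its replicate b and 42 without its replicate a. It was 4 and 5 without replicate 1 and 3 of 1w pw1, 6 without replicate b of 8w pw1 or replicate 3 of 1w pw2, 7 without replicate 2 of 1w pw2, 4 on library totals and 0 with surrogate variables. It was 40 with the likelihood ratio test, 36 with DESeq2 and 48 with limma-voom. With the GC trend removed it was 48 (median -1.55, beside -0.40 for all genes), with the length trend removed 29 and with both removed 25. The shares of all genes called in these fits are not given here. The summed keratinocyte markers were 18978 to 43989 CPM at 1w pw1 and 14366 to 18568 at 4w pw1, without overlap, the mean mitochondrially encoded share was 2.82% and 1.53%, and the mean total 3860680 and 1591250 counts; their part in the result was not tested.

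Against 0w, no Lgr5 GL member was called at 2w pw1 or any later time. The members' medians were -0.08 at 2w pw1, -0.24 at 4w pw1, -0.05 at 8w pw1 and -0.01 at 1w pw2, beside medians of all genes between -0.01 and 0.03. The 0w level rested in part on replicate c, with a summed member level of 14005 CPM beside 8179 and 8811 in replicates a and b. Without replicate c the median was 0.25 at 8w pw1 and 0.32 at 1w pw2. Of all genes, 0.105% were called lower and 0.0499% higher at 4w pw1 and 0% at the other times. At 4w pw1, 65 of 86 members were negative (50.3% of all genes). At an unadjusted p under 0.05, 7 were lower there (5.17% of all genes) and 1 was higher (5.58%). At 2w pw1 none was lower or higher (3.36% and 5.43%). At 8w pw1, the time of the Lrig1 GL calls, edgeR's quasi-likelihood test called no member, and 1 was higher at an unadjusted p under 0.05 (3.43% of all genes).

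The first and the second wound can be set side by side 1 week after each. In Lgr5 GL, the members were lower after the second wound than after the first, with a median of -0.83 beside 0.09 for all genes and 85 of 86 members negative (46.4% of all genes). None was called (0.061% of all genes lower, 0.205% higher), 43 were lower at an unadjusted p under 0.05 (5.68% of all genes), and for 61 every library after the second wound lay below every library after the first (11% of all genes). Rplp0 had 787, 828 and 1027 CPM after the first wound and 547, 555 and 562 after the second (-0.67, adjusted p 0.221), and Rps2 273, 352 and 441 against 117, 149 and 206 (-1.17, adjusted p 0.0928). In Lrig1 GL the median of this difference was -0.24, 7 members were lower at an unadjusted p under 0.05 (3.01% of all genes), 3 were higher (5.86%) and none was called (0%). The likelihood ratio test, DESeq2 and limma-voom called 4, 8 and 3 members in Lgr5 GL, without the shares of all genes called by these being given here. The median was near 0 in both populations once surrogate variables were fitted.

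A test over the whole time course at once, without surrogate variables, called 5 members in Lrig1 GL and 2 in Lgr5 GL, where 1.63% and 1.13% of all genes were called at an adjusted p under 0.05 and a log2 difference from 0w above 1 in size. The study fitted surrogate variables before its test of this kind, and with them, at the estimated number or at 2, 0 members were called in either population. The 5 in Lrig1 GL were Rpl41 (adjusted p 0.0343), Rpl32 (0.0373), Rpl27 (0.0373), Rpl6 (0.0494) and Rpl13 (0.0497), all from edgeR's quasi-likelihood test. In Lgr5 GL they were Rps2 (0.0413) and Rps18 (0.0414). Rpl37a had an adjusted p of 0.0493 in Lgr5 GL but a largest log2 difference of 0.98. At an unadjusted p under 0.05 there were 42 members in Lrig1 GL and 43 in Lgr5 GL, against 20.5% and 16.9% of all genes. When 1 library was left out, the number called was at most 9 in Lrig1 GL and 6 in Lgr5 GL, and 0 in 9 and 14 of 18 removals; it was 9 without replicate c of 2w pw1 and 6 without replicate a of 4w pw1.

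Whether the populations differed was tested on the difference of their changes, over 85 members and 16153 genes fitted together. At 8w pw1 against 0w, 2 members were called, both more positive in Lgr5 GL, where 0.458% of all genes were called in that direction and 0.65% in the other. One of them, Rpl11, which fell in Lrig1 GL, had 62.9, 87.1 and 108 CPM at 0w and 92.7, 136 and 146 at 8w pw1 in Lgr5 GL, a difference of -1.63 between the changes (SE 0.402, adjusted p 0.0425 in edgeR's quasi-likelihood test). Over the 85 members the median of this difference was -0.78 beside 0.05 for all genes, and 27 were more positive in Lgr5 GL at an unadjusted p under 0.05 (7.92% of all genes) and 2 in Lrig1 GL (9.69%). Among the removals of 1 library each, the number called was between 0 and 3, and 0 in 14 of 36; with GC content or length trends removed it was 0.

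At 1w pw1 against 0w the median difference between the changes was -1.08, with 84 of 85 members more positive in Lgr5 GL and 39 of them at an unadjusted p under 0.05 (6.49% of all genes). None was called, where 0.0186% of all genes were called in that direction and 0.031% in the other. Rplp0 had -1.67 (SE 0.359, adjusted p 0.0611). The likelihood ratio test called 9 and DESeq2 10, and the shares of all genes called by these are not given here. At 4w pw1 the median was 0.48 and at 2w pw1 -0.01, and no member was called at either (0.0371% and 0.0557% of all genes in the direction of Lrig1 GL and Lgr5 GL at 4w pw1, 0% at 2w pw1). For the second wound against the first the median was 0.66, beside -0.05 for all genes. It was -0.11 and -0.044 with the estimated number and with 2 surrogate variables, beside 0.14 and 0.01 for all genes. On library totals it was -0.0022, beside -0.69 for all genes. The median at 4w pw1 was -0.074 with the estimated number, beside 0.27 for all genes. In the fit without surrogate variables, 17 members were more positive in Lrig1 GL for the second wound at an unadjusted p under 0.05 (5.97% of all genes). None was called (0.0371% of all genes). The 1w pw1 and 8w pw1 differences share the 0w libraries.

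Paralogs were set beside the gene from which they are named, per kilobase. In Lrig1 GL, Rpl22l1 was 0.386, 0.559 and 1.34 times Rpl22 in the libraries of 0w and 2.32, 4.13 and 4.28 times in those of 8w pw1, ratios that did not overlap. In Lgr5 GL the ratio was 1.04 to 2.62 at 0w and 1.15 to 2.78 at 8w pw1. Rps27l, a p53 target, was 1.14, 1.45 and 1.59 times Rps27 at 0w and 1.99, 2.08 and 2.28 times at 8w pw1 in Lrig1 GL. In Lgr5 GL it was 0.771 to 1.45 and 0.591 to 0.726 times. The Lrig1 GL ratio was 0.868 to 1.64 at 1w pw1. It was 1.30 to 2.49 at 2w pw1, 0.907 to 2.12 at 4w pw1 and 1.43 to 4.66 at 1w pw2, ranges that overlapped with 8w pw1. The others listed with their partner had lower means over all libraries: Rpl36al was 0.278 and 0.158 times Rpl36a, and Rpl7l1 0.0720 and 0.113 times Rpl7. In Lgr5 GL, Rpl39l was 0.120 times Rpl39 and Rpl3l 0.00526 times Rpl3. In Lrig1 GL from 0w to 8w pw1, Rpl22 went from 88.3, 113 and 132 to 54.4, 62.3 and 114 CPM (-0.53, adjusted p 0.343) while Rpl22l1 had the positive difference given above, so that the lowest Rpl22l1 library at 8w pw1 (39.0 CPM) lay above the highest at 0w (31.8). Rps27 went from 152, 154 and 185 to 87.4, 87.9 and 113 CPM without overlap (-0.77, adjusted p 0.257), and Rps27l from 252, 355 and 389 to 253, 263 and 371 with overlap (-0.17). The difference between paralogs was not tested, and none of Rpl22, Rpl22l1, Rps27 and Rps27l was called at 8w pw1 against 0w in Lrig1 GL.

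**Figure D4:**
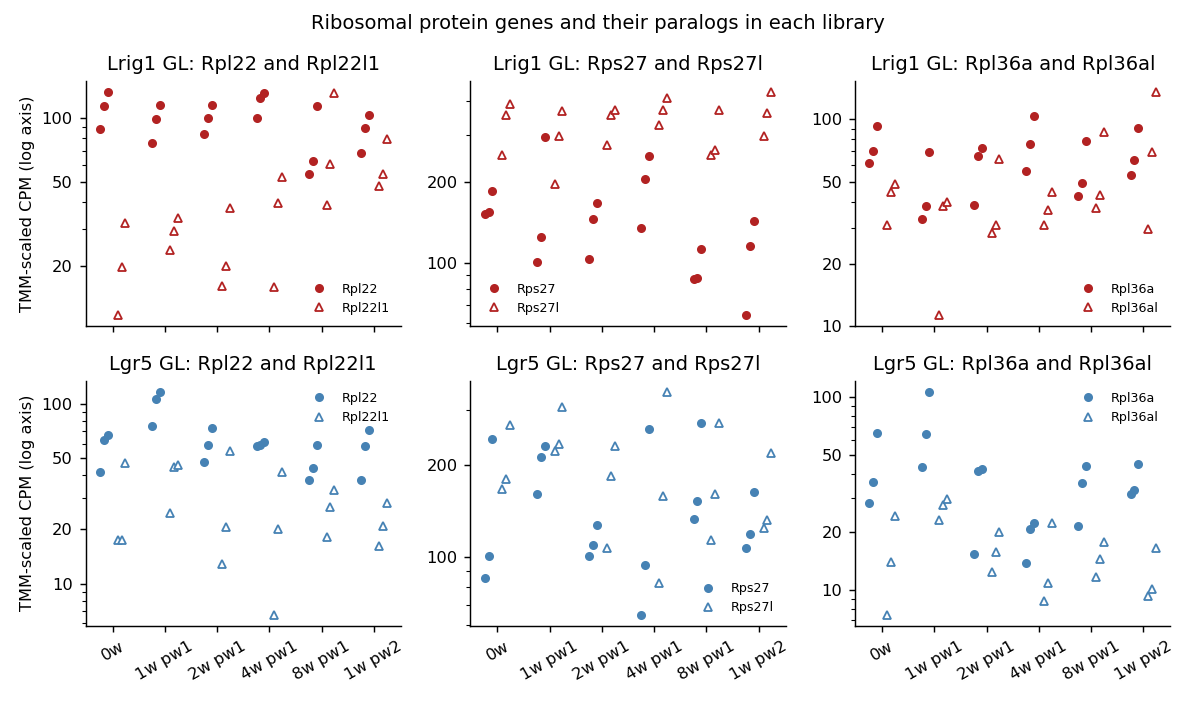
TMM-scaled CPM (log axis, not divided by length) of Rpl22, Rps27 and Rpl36a (filled circles) and their paralogs Rpl22l1, Rps27l and Rpl36al (open triangles) in each library of Lrig1 GL (top) and Lgr5 GL cells (bottom). In Lrig1 GL the Rpl22l1 libraries of 8w pw1 (39.0 to 131 CPM) lie above those of 0w (11.8 to 31.8), while Rpl22 overlaps.

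Other genes of the translation machinery were described in the same way. Of 23 translation factors and other genes with TOP mRNAs, none was called at 8w pw1 against 0w in Lrig1 GL (median -0.54, 7 lower and 4 higher at an unadjusted p under 0.05, beside 10.7% and 12.3% of all genes), and 6 were called lower against 4w pw1 (1.94% of all genes). Among these were Eef1a1, which delivers tRNA to the ribosome (-1.18), Eef1d (-1.50), Rpsa, a small-subunit protein whose name falls outside the rule (-1.24), and Fau, the precursor of another (-1.26). At 1w pw2 against 0w, Npm1 (1.92, adjusted p 0.0217) and Hnrnpa1 (2.17, adjusted p 0.0230) rose in Lrig1 GL, where 1% of all genes were called higher. The median of the 23 was 0.03, with 12 positive and 11 negative. In Lgr5 GL, 22 of the 23 were positive at 1w pw1 against 0w, beside 46.5% of all genes (median 0.46, none called, 7 higher at an unadjusted p under 0.05, beside 6.79%), and 4 fell from 1w pw1 to 4w pw1 (1.19% of all genes): Rack1 (-1.44), Eef1g (-1.19), Eef1a1 (-1.15) and Eef2 (-0.90).

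Of 35 ribosome biogenesis genes, 3 fell at 8w pw1 in Lrig1 GL, where 1.32% of all genes were called lower and 1.54% higher: Nhp2 (-1.49, adjusted p 0.0304) and Nop2 (-2.03, adjusted p 0.0494), which modify ribosomal RNA, and Ebna1bp2 (-1.54, adjusted p 0.0413). The biogenesis median was -0.17. Of 20 mTORC1 pathway genes, Pdcd4, an inhibitor of translation initiation, rose (1.48, adjusted p 0.0163). Of 75 mitochondrial ribosomal protein genes, Mrps22 rose (2.39, adjusted p 0.0238) and Mrpl12, Mrpl22 and Mrps26 fell (-1.76, -2.45 and -1.21), with 62 negative (50.3% of all genes) and a median of -0.61. In Lgr5 GL at 1w pw1, Tsc1, an inhibitor of mTORC1, fell (-2.33, adjusted p 0.0398) and Mrpl20 rose (1.67, adjusted p 0.0197). There 0.86% of all genes were called lower and 0.433% higher. Of the 75 mitochondrial ribosomal protein genes, 63 were positive at that time (46.5% of all genes, median 0.69). No gene of the 4 lists was called at 8w pw1 against 0w in Lgr5 GL, where 0% of all genes were called higher or lower.

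Base composition and transcript length moved with the Lrig1 GL result, and their part in it was not tested. The members' transcripts had 40.6% to 60.8% GC (median 51.6%) and were 345 to 5179 bases long (median 871). For each library, the deviation of a gene's log2 CPM from its mean over all libraries of the population was set against GC content. Over all genes tested, the slope of this deviation was 0.387 ± 0.0321 per 10 percentage points (SD, n = 3) at 0w in Lrig1 GL. It was -0.629 ± 0.0655 at 8w pw1 and -0.445 ± 0.224 at 1w pw2, so that these slopes are relative to the average library. In Lrig1 GL the slope on transcript length, per doubling, was -0.0699 ± 0.160 at 0w and -0.161 ± 0.0483 at 4w pw1. At 8w pw1 it was 0.222 ± 0.0268. Across the 85 members, Pearson's r between GC content and the difference at 8w pw1 was -0.37 against 0w and -0.45 against 4w pw1. With log2 transcript length in place of GC content, r was 0.12 and 0.18. These values describe genes that share the same libraries. In Lgr5 GL the r at 1w pw1 against 0w was 0.11 with GC content and 0.13 with log2 length. The length slope there was -0.241 ± 0.0618 per doubling at 1w pw1 and 0.0132 ± 0.0912 at 0w. With both trends removed the member medians were -0.49 at 8w pw1 in Lrig1 GL and 0.66 at 1w pw1 in Lgr5 GL, beside -0.32 and 0.13 for all genes, and no member was called in either.

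**Figure D5:**
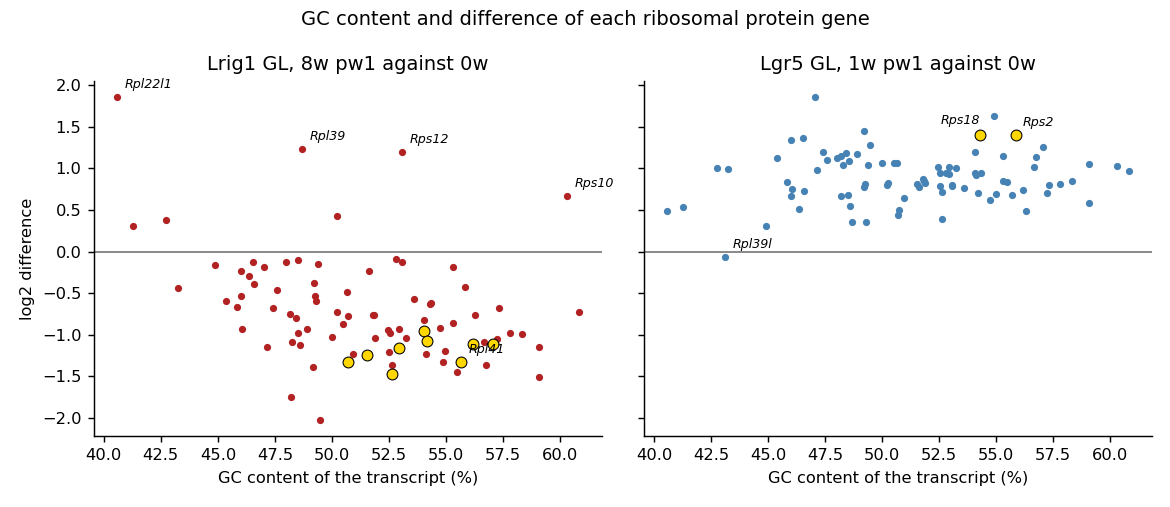
GC content of the transcript (horizontal axis, %) against the log2 difference of each ribosomal protein gene at 8w pw1 in Lrig1 GL (left) and at 1w pw1 in Lgr5 GL (right), both from 0w, with called members as yellow points. In Lrig1 GL the points slope down (r -0.37 over 85 genes), with Rpl22l1 at the lowest GC content the most positive, and in Lgr5 GL all but Rpl39l lie above 0.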

How the data were processed

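Mini-bulk RNA-seq libraries (Smart-seq2, oligo-dT) of sorted tdTomato+ cells were deposited as 2 tables of raw read counts per gene name, 1 for each population. Per the submitters' processing notes, the authors trimmed reads with Trim Galore 0.5.0 and aligned them with HISAT2 to mm10. They counted exons with featureCounts on GENCODE M20. The options that the study lists for featureCounts name neither a strand nor a multiple-match setting. Counts were not changed. For 15 of 36 libraries the replicate number matched the labels (1 to 3), and the other 21 were known by group (a to c). Genes were kept with filterByExpr (minimum count 10), scaled to TMM-based CPM and tested with edgeR 4.0.16 (R 4.3.3) quasi-likelihood F-tests, 6 groups per population in 1 fit, and 12 groups for differences between populations. SE is the log2 difference over the root of F. Permutation of 3 against 3 libraries cannot go below 0.1. Shares are of all counts, and depth limits the lowest members most (Rps10, Rpl13a). Named genes were fixed roles, the members called (at most 10 per comparison), the 3 highest and 3 lowest, and members of largest difference chosen after their values were seen; some members are counted but not reported here by name. Members and lists were chosen with earlier results of these data known. Gene spans and composition came from GENCODE M21 (GRCm38). Alternatives used DESeq2 1.42.0, limma 3.58.1 and sva 3.50.0. The fits were tested on simulated data.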

Additional observations from a re-analysis of the deposited data

Results flagged for a closer look

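The change of Rpl11 from 0w to 8w pw1 differed between the populations by the test of the difference itself (edgeR's quasi-likelihood test over 16153 genes). For Rpl11 the Lrig1 GL change minus the Lgr5 GL change was -1.63 on the log2 scale (SE 0.402, adjusted p 0.0425), with all 3 libraries at 8w pw1 below those at 0w in Lrig1 GL and overlapping groups in Lgr5 GL. The number of members called in this test was 0 to 30 over 16 alternatives. It was 0 with GC or length trends removed, with surrogate variables, and in 14 of 36 removals of 1 library.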

How the results depend on the processing

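The direction of the members' medians at 8w pw1 in Lrig1 GL (-1.09 to -0.47) and at 1w pw1 in Lgr5 GL (0.31 to 1.06) held under all 16 alternatives, while the numbers called did not. These are the members' own medians, and the medians of all genes moved under some alternatives too. The share of all genes called under each alternative is not given here. The numbers of members called below therefore do not compare members with other genes. The likelihood ratio test called 30 members at 8w pw1, 19 over the course, 1 at 1w pw1 and 3 at 1w pw2 in Lrig1 GL, 13 at 1w pw1, 16 over the course and 4 for the second wound against the first in Lgr5 GL, and 9 and 1 members whose change differed between populations at 1w pw1 and for the second wound against the first. DESeq2 called 34, 19, 1 and 7 (and 4 for the second wound against the first), then 14, 11 and 8, then 10 and 1. Limma-voom called 8, 7 and 3 in Lgr5 GL, and 1, 3 and, at 8w pw1, 6 between populations. With DESeq2's size factors 3 were called over the course in Lrig1 GL and 1 at 8w pw1 between populations.

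On library totals, all-gene medians moved by more than 0.1 (to -0.28 at 8w pw1 in Lrig1 GL, and to -0.58 between populations). There 36 members were called at 8w pw1 (median -1.09), 14 over the course and 1 at 1w pw2 in Lrig1 GL, 0 at 1w pw1 and over the course in Lgr5 GL, and 30 between populations at 8w pw1 (median -1.43). Other medians became 0.39 and -1.08 at 1w pw2 (Lgr5 GL, between populations), beside 0.38 and -0.63 for all genes. For the second wound against the first they became -0.46, -0.44 and, reversed, -0.0022 (Lrig1 GL, Lgr5 GL, between populations). The all-gene medians beside these were -0.22, 0.46 and -0.69. Without a filter 3, 0, 0 and 1 were called (8w pw1 and course in Lrig1 GL, course in Lgr5 GL, between populations at 8w pw1). With a minimum count of 30 they were 18, 8 and, at 1w pw2, 1 in Lrig1 GL and 7 at 1w pw1 in Lgr5 GL. A robust fit called 16 and leaving out mitochondrially encoded genes 14 at 8w pw1 in Lrig1 GL.

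With 5, 4 and 9 estimated surrogate variables (Lrig1 GL, Lgr5 GL, both), 0 were called at 8w pw1 and over the course in Lrig1 GL, at 1w pw1 and over the course in Lgr5 GL, and between populations, with medians of -0.52 at 8w pw1, 0.37 at 1w pw1 and -0.39 between populations at 1w pw1. For the second wound against the first the medians reversed to 0.069, 0.021 and -0.11, and between populations at 4w pw1 to -0.074. With 2 surrogate variables the calls were again 0, the medians -0.47, 0.31 and -0.43, the 1w pw2 median in Lrig1 GL -0.093, and those for the second wound 0.081, -0.021 and -0.044. Removing GC trends left 2 at 8w pw1 and 0 over the course in Lrig1 GL, 7 over the course in Lgr5 GL, and 2 and 0 between populations at 1w pw1 and 8w pw1. Removing length trends left 0 over the course in Lrig1 GL, 5 over the course and 0 at 1w pw1 in Lgr5 GL, and 2 and 0 between populations. Removing both left 0 at 8w pw1 (median -0.49) and over the course in Lrig1 GL, 0 at 1w pw1 in Lgr5 GL, and 3 and 0 (median -0.34) between populations; the largest difference of Rpl41 over the course was then 0.45. All-gene medians moved here as well. At 8w pw1 in Lrig1 GL the all-gene median was 0.24 with the estimated number of surrogate variables. It was -0.34 with GC trends removed and -0.32 with both trends removed. Between populations at 8w pw1 it was -0.16 with both removed. The cause of these shifts was not tested.

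Shares with hyphenated names added were 2.29%, 2.03%, 2.55%, 1.17% and 1.62% in Lrig1 GL (in time order, 2w pw1 left out) and 1.06%, 1.37% and 1.54% in Lgr5 GL (at 0w, 8w pw1 and 1w pw2). Without Gm12415 the Lgr5 GL shares were 1.43%, 2.57%, 1.44%, 1.43%, 1.53% and 1.68% in time order, and without mitochondrially encoded genes too 1.49%, 2.69%, 1.51%, 1.46%, 1.59% and 1.74%, and 1.20% at 8w pw1 in Lrig1 GL.

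Leaving out 1 library at a time gave 0 to 18 calls at 8w pw1 in Lrig1 GL (median -0.96 to -0.69), 0 to 9 over the course and 0 to 1 at 1w pw2, 0 to 7 at 1w pw1 (median 0.75 to 1.13) and 0 to 6 over the course in Lgr5 GL, and 0 to 3 at 8w pw1 (median -1.10 to -0.58) and 0 to 4 at 1w pw1 (median -1.38 to -0.85) between populations.

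Replicate numbers did not pair the libraries (mean correlation of deviations 0.00635 over 9 pairs in Lrig1 GL, -0.00606 over 3 in Lgr5 GL). A replicate block could be fitted on the numbered libraries alone. Comparisons among these had no call without the block, so that it could not test the calls given above. With the block no call was made, and medians were -0.16 at 1w pw1, -0.39 at 1w pw2 and -0.22 for the second wound against the first in Lrig1 GL, -0.86 for the latter in Lgr5 GL and 0.70 between populations. Depth limits the lowest members most.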
